A study of Mus musculus with 20 samples.

Results

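The glycolysis and hypoxia response genes described here are 36 genes taken by name from the 36724 genes of the deposited table, and all 36 were found. They comprise 4 transporters, 9 enzymes of the upper steps of glycolysis, 8 enzymes of the lower steps and the fate of pyruvate, 4 genes of oxygen sensing and 11 hypoxia response genes. Of the 36, 33 passed a filter of at least 0.5 RPKM (read numbers divided by gene length and by library size) in at least 3 of 20 libraries. The lactate exporter Slc16a3, the collagen hydroxylase subunit P4ha2 and the carbonic anhydrase Car9 did not pass it, and their levels are given without a test.

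Glycolysis breaks glucose down to pyruvate in the cytosol, and lactate dehydrogenase then turns pyruvate into lactate. The hypoxia-inducible factors HIF-1 alpha and HIF-2 alpha are transcription factors that prolyl hydroxylases mark for breakdown when oxygen is present. When oxygen is scarce the factors bind a short element whose core can read ACGTG. They raise glucose transporters, glycolytic enzymes and a set of other response genes. Dividing neural stem and progenitor cells are known for a high glycolytic flux, which falls as they turn into neurons.

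Expression was measured by RNA sequencing of untreated mouse neurospheres, free-floating clusters of neural stem and progenitor cells, cultured from adult C57BL/6 donors 8 to 12 weeks old. The donors were knockout (EGFL7-/-) or wild type for Egfl7, a gene for a secreted protein that binds Notch receptors. The deleted segment of Egfl7 is not described in the labels. Spheres of the subventricular zone (SVZ), taken in the first sphere round at culture day 3, gave 3 knockout and 3 wild-type libraries, all from male donors. Hippocampal spheres of the first round at day 5, called HC1, gave 3 knockout libraries from males and 3 wild-type libraries from females, so that genotype and donor sex cannot be told apart there. Hippocampal spheres of the second round at day 5, called HC2, gave 4 knockout and 4 wild-type libraries, all from males. All cultures were kept at 5% CO2 in medium with EGF and FGF. The labels name no oxygen level.

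The label check on Egfl7 failed in 2 of 20 libraries. Among SVZ knockouts the gene had 0.094, 2.86 and 0 RPKM, and among SVZ wild types 1.73, 2.99 and 0 RPKM, so the libraries labelled SVZ knockout replicate 2 and SVZ wild type replicate 3 went against their labels. All 7 hippocampal knockout libraries were listed at 0, and the 7 hippocampal wild types had 0.566 to 1.59 RPKM. All 11 neural stem and progenitor markers passed the filter, with summed levels of 6129 to 13731 RPKM per library. Of the 10 endothelial, 10 microglia and macrophage, 8 pericyte and fibroblast and 5 red blood cell markers, 2, 1, 1 and 0 passed it. Values were listed for 20640 to 22204 genes in HC2 libraries, against 19109 to 20158 genes in first-round libraries. Relative depth was estimated at 1.52 to 2.68 times the shallowest library in HC2, against 1.00 to 1.19 times in the first round. That estimate was restricted to higher ratios for HC2 libraries, so it cannot show by itself that they were deeper. The HC2 libraries also spanned the widest range in cell cycle genes. The mean log2(RPKM + 1) of 32 cell cycle genes was 5.66, 4.02, 5.74 and 3.59 in HC2 knockouts, against 5.96, 2.78, 1.82 and 3.72 in HC2 wild types, and 4.83 to 6.91 in the 12 first-round libraries. Fewer cells of a type and less RNA per cell cannot be told apart in such bulk libraries.

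The promoters of 5 members are shown because these genes carry the differences described further on. Pgk1, Eno1 and Egln3 fell and Pfkm rose in second-round spheres, and the level of Ldha followed the cell cycle genes within groups. The 5 were chosen after their values were seen. Each window runs from 250 bases before to 50 bases after a RefSeq transcription start (GRCm38.p6), read along the strand of the gene, with capitals marking the HIF element core ACGTG or its reverse complement CACGT.
Ldha: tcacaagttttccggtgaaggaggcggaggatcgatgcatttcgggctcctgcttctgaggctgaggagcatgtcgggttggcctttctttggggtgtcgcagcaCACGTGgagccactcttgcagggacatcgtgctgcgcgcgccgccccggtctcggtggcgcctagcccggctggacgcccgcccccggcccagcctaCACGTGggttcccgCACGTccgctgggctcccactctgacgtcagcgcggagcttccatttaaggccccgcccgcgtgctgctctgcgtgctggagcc
Pgk1: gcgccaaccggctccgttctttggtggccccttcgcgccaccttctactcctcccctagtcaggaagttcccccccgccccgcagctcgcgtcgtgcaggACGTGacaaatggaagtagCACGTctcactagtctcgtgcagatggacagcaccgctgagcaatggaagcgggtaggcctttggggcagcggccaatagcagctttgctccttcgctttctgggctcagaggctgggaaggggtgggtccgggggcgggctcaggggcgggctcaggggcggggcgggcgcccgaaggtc
Pfkm: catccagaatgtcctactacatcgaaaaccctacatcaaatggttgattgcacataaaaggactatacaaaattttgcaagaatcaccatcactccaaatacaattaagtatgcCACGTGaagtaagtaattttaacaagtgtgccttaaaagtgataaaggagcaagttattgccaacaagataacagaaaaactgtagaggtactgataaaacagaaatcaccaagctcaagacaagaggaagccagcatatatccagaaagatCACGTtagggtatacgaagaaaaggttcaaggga
Egln3: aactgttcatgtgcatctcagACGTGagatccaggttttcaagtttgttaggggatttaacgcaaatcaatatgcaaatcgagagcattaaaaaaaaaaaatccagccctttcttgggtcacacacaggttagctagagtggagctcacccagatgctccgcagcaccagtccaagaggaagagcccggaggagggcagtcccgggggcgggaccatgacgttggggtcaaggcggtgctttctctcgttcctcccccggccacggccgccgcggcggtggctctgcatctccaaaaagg
Eno1: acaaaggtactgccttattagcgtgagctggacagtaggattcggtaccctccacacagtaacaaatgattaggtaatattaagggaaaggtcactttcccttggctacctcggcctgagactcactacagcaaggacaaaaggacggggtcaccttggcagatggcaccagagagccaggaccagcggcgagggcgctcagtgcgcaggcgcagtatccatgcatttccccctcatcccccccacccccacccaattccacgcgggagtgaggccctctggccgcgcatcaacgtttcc

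The Ldha window (chr7:46845554-46845853, plus strand) held 3 sites, 2 of them the palindrome CACGTG that reads the same on both strands. The windows of Pgk1 (chrX:106186850-106187149, plus strand) and Pfkm (chr15:98092339-98092638, plus strand) held 2 sites each. The window of Egln3 (chr12:54203825-54204124, minus strand) held 1 site and that of Eno1 (chr4:150236458-150236757, plus strand) held none. Among the 36 members, 32 had a window in the table, and 19 of these 32 (59.4%) held at least 1 site, against 19.6% of all 32851 windows. Overlapping matches of both strands were counted as 1 site, and 9 member windows held 2 or more sites, against 2.69% of all windows. Each member gave 1 window, the nearest to the deposited end of the gene, whereas all windows of every gene entered the background. The windows were not matched for base content, and the members were listed as glycolysis and hypoxia response genes. The shares were not tested, and no enrichment is drawn from them. Bnip3l, Slc2a3, Ndrg1 and Epas1 had no window in the table. In 4 of the 32 genes the nearest window lay more than 500 bases from the deposited end of the gene. A match is a description of the letters and not evidence of binding, and no match says only that these letters are not in this window. Other forms of the core were not searched.

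**Figure D1:**
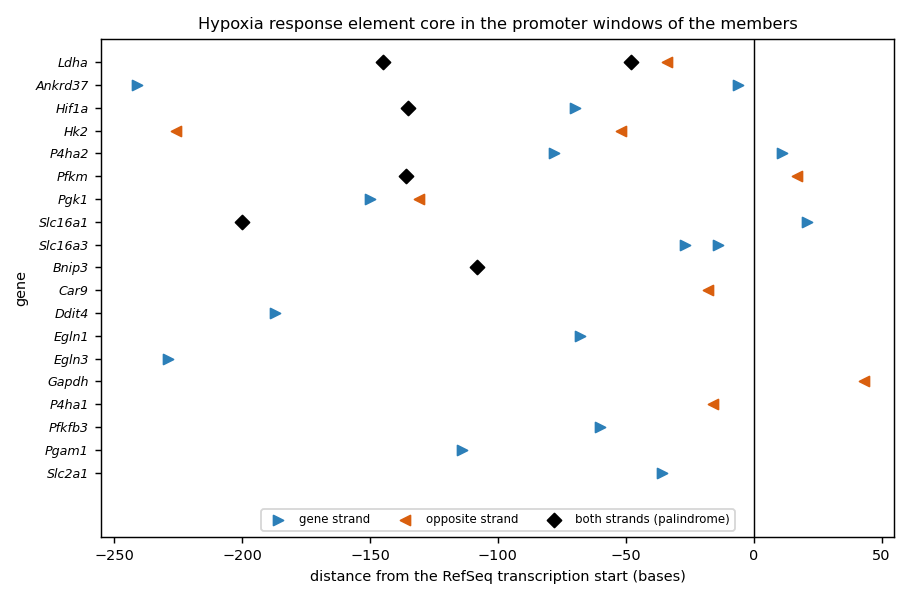
Positions of the HIF element core in its form ACGTG in the 19 member promoter windows that hold it. The x axis is the distance in bases from the RefSeq transcription start and the y axis the gene. Arrowheads mark the strand and diamonds the palindrome. Ldha, with 3 sites, has its sites 145, 48 and 34 bases before the start.

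Across all libraries the enzymes of glycolysis spanned a wide range of levels. Of these members Pkm, pyruvate kinase, which makes pyruvate, had the highest median level in RPKM. Its lowest, median and highest values over the 20 libraries were 240.4, 503.3 and 840.2. Aldoa, aldolase A, which splits the sugar chain, came next with 318.5, 426.6 and 559.9 RPKM. Both were above every transporter, sensor and response gene in every library. Ldha, which makes lactate from pyruvate, had 48.8, 191.3 and 416.7 RPKM, a wider ratio of highest to lowest than Pkm, Aldoa, Pgk1 or Eno1.

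The other enzymes fell into tiers. Gpi1 (glucose phosphate isomerase), Eno1 (enolase 1), Pgk1 (phosphoglycerate kinase 1), Pgam1 (phosphoglycerate mutase 1), Tpi1 (triose phosphate isomerase) and Pfkm (muscle-type phosphofructokinase) had medians over the 20 libraries of 190.4, 174.7, 162.1, 120.8, 111.9 and 104.4 RPKM. Hk1, hexokinase 1, which starts glycolysis, had a median of 71.5 RPKM and Gapdh, glyceraldehyde-3-phosphate dehydrogenase, 45.6 RPKM. Gapdh, Pgk1, Ldha, Tpi1, Eno1 and several others have processed pseudogenes in the mouse genome, and the labels do not say how reads were shared with such copies, so their levels are uncertain. Pfkl (liver-type phosphofructokinase), Pfkfb3 (which makes an activator of phosphofructokinase), Pfkp (platelet-type phosphofructokinase), Pdk1 (a kinase that shuts pyruvate out of the mitochondrial cycle), Eno2 (neuronal enolase) and Hk2 (hexokinase 2) were lower, with medians of 24.9, 12.0, 10.1, 8.34, 2.96 and 2.23 RPKM.

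Among transporters, Slc16a1 (MCT1, which carries lactate and pyruvate) had a median of 38.9 RPKM, Slc2a1 (GLUT1) 19.7 RPKM and Slc2a3 (GLUT3, the main neuronal glucose transporter) 10.6 RPKM. Slc16a3 (MCT4, a lactate exporter) lay between 0.059 and 0.561 RPKM. Among the sensors, Hif1a (HIF-1 alpha) had a median of 138.2 RPKM, Egln1 (prolyl hydroxylase PHD2) 33.2 RPKM, Egln3 (PHD3) 12.6 RPKM and Epas1 (HIF-2 alpha) 10.2 RPKM. The response genes ranged from Ddit4, an inhibitor of mTORC1, with a median of 73.7 RPKM, to Car9, carbonic anhydrase 9, which was listed at 0 in 18 of 20 libraries. Between these lay P4ha1 (a collagen prolyl hydroxylase subunit), Adm (the vasodilator peptide adrenomedullin) and Bnip3l (a mitophagy receptor), with medians of 36.9, 27.1 and 27.0 RPKM. Vldlr (a lipoprotein receptor) and Bnip3 (a mitophagy receptor) had 11.6 and 5.48 RPKM. Ankrd37 (an ankyrin repeat protein), Car12 (carbonic anhydrase 12), P4ha2 and Ndrg1 (N-myc downstream regulated 1) had 1.11, 0.452, 0.164 and 0.143 RPKM.

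**Figure D2:**
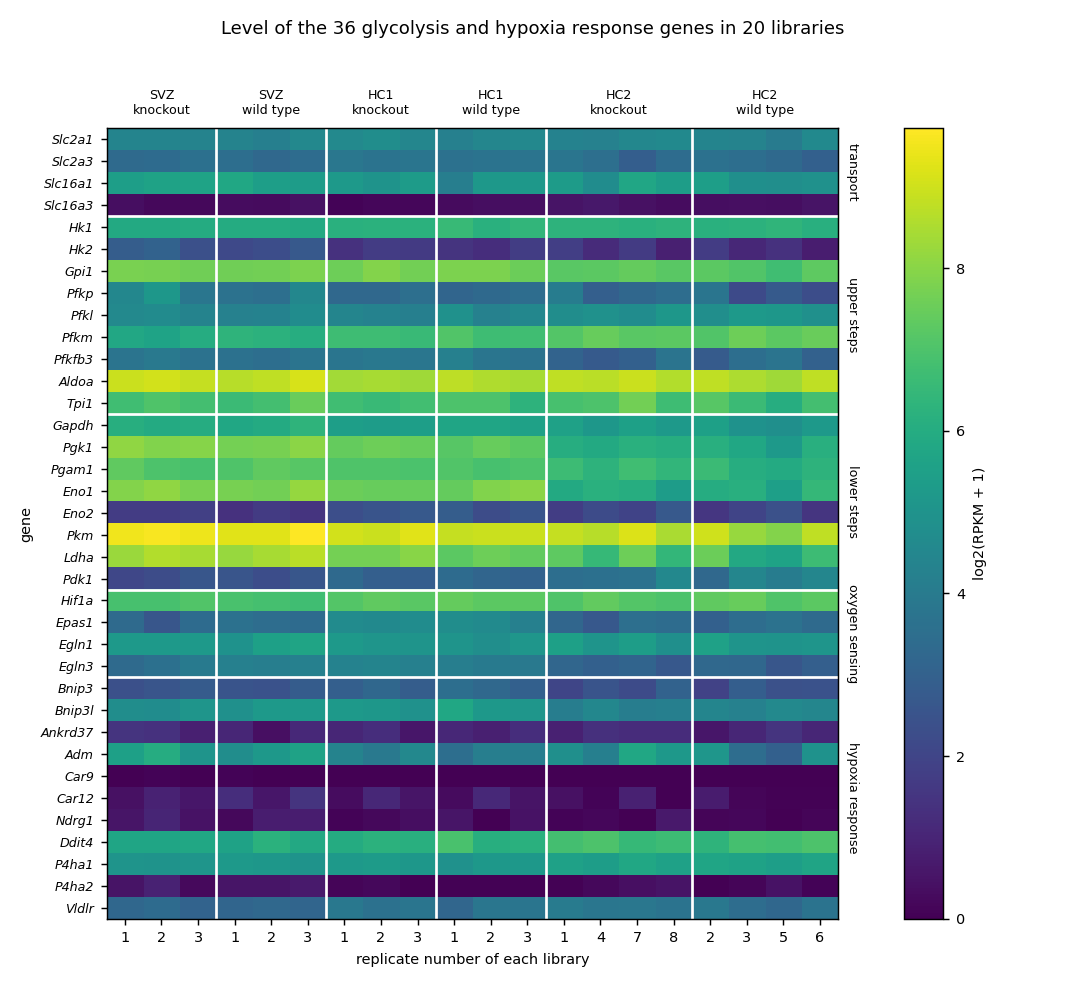
Level of each of the 36 genes (y axis, grouped by role) as log2(RPKM + 1) (colour) in the 20 libraries (x axis, by group and replicate number, knockout left of wild type). Pkm and Aldoa are the brightest genes, Car9 is at or near 0, and Pgk1 and Eno1 are darker in all 8 HC2 libraries than in the 12 first-round libraries.

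The shares of related enzymes were set side by side within each library. Hk2 made up 9.03% ± 2.38 of the summed RPKM of both hexokinases in SVZ knockouts and 6.59% ± 1.87 in SVZ wild types (SD, n = 3 each). It was 2.70% ± 0.46 in HC1 knockouts and 2.26% ± 0.55 in HC1 wild types (SD, n = 3 each), and in HC2 it was 2.19% ± 1.03 in knockouts and 1.92% ± 0.92 in wild types (SD, n = 4 each). The SVZ values lay between 5.13% and 10.96%, and no hippocampal library was above 3.19%. Pfkm made up 55.7% ± 10.6 of the 3 phosphofructokinases in SVZ knockouts and 67.4% ± 8.19 in SVZ wild types, with Pfkp at 22.3% ± 9.33 and 13.4% ± 4.99 (SD, n = 3 each). Pfkm took 76.6% to 84.9% in all 14 hippocampal libraries. Ldha made up 59.5% ± 7.35 of the summed Ldha and Ldhb in SVZ knockouts, 58.0% ± 5.42 in SVZ wild types, 42.9% ± 6.03 in HC1 knockouts and 31.4% ± 5.66 in HC1 wild types (SD, n = 3 each). In HC2 this share ran from 28.8% to 54.7% in knockouts and from 20.7% to 56.6% in wild types, so those groups overlapped widely. In SVZ, the lowest Pfkm share was 44.9% in knockouts and 57.9% in wild types, and the highest Pfkp share 32.1% and 19.1%. These were the values of SVZ knockout replicate 2 and SVZ wild type replicate 3, which went against their labels. The same libraries had the highest Hk2 and Ldha shares of their groups. All of these shares are descriptions and were not tested.

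The first question the design puts is whether loss of Egfl7 changed these genes. No member passed the test in any of the 3 comparisons of knockout with wild type. The test was limma on log2(RPKM + 1) with an adjusted p under 0.05 (Benjamini-Hochberg, 16403 genes), which called 0.0122% of all genes in SVZ, 0.0122% in HC1 and 0.0244% in HC2. At an unadjusted p under 0.05, 2 of 33 members lay below that line in SVZ, 0 in HC1 and 1 in HC2, against 379, 646 and 644 of the 16403 genes. The median log2 difference over the 33 members was 0.01 in SVZ, -0.00 in HC1 and 0.11 in HC2, beside -0.00, -0.01 and 0.00 over all genes. The difference was above 0 in 17, 15 and 23 of 33 members. In SVZ, 1 member had all knockouts above and 3 all knockouts below all wild types (3.41% and 4.35% of all genes), and in HC1 2 and 2 (6.63% and 7.05%).

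By role, the median log2 difference of the 8 lower-step genes was 0.03 in SVZ, -0.01 in HC1 and 0.27 in HC2. That of the 9 upper-step genes was 0.08, -0.07 and 0.13, and that of the 3 tested transporters 0.02, 0.19 and 0.08. The 4 sensors had -0.27, 0.13 and -0.09, and the 9 tested response genes -0.01, -0.12 and 0.11. In HC2, the 6 lower-step genes above 0 stood beside a cell cycle list whose median log2 difference was 1.26 in the knockouts. With the cell cycle mean as a covariate, the HC2 median over the 33 members was 0.04, against 0.11 without it. No member was called in that run, and the lower-step genes were not summarized apart.

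In SVZ the 3 members of smallest p were Egln3, Pfkm and Epas1, all lower in the knockouts. Egln3 had 9.30, 10.9 and 15.2 RPKM in SVZ knockouts, against 17.8, 16.9 and 17.9 RPKM in SVZ wild types. Every knockout value lay below every wild-type value. The log2 difference was -0.56 (SE 0.19), with a limma adjusted p of 1.0 and an exact two-sided permutation p of 0.1, the smallest that 3 against 3 libraries allow.

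Pfkm had 56.4, 48.2 and 63.3 RPKM in SVZ knockouts, against 78.3, 75.5 and 64.6 RPKM in SVZ wild types. The lowest knockout and the lowest wild type were the libraries that went against their labels, replicates 2 and 3. These groups did not overlap, and the log2 difference was -0.38 (limma adjusted p = 1.0; exact permutation p = 0.1). Epas1 had 9.38, 5.01 and 9.56 RPKM in SVZ knockouts, against 11.2, 10.2 and 9.63 RPKM in SVZ wild types. The lowest knockout value belonged to the library labelled SVZ knockout replicate 2, which went against its label, and the log2 difference was -0.38 (limma adjusted p = 1.0; exact permutation p = 0.1). Without the libraries against their labels, the differences of Egln3, Pfkm and Epas1 were -0.50, -0.36 and -0.16, and no member was called in SVZ either.

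In HC1 the members of smallest p were Hk1, Egln3 and Gapdh. Hk1 had 71.4, 72.0 and 73.4 RPKM in HC1 knockouts, against 92.7, 70.3 and 82.1 RPKM in HC1 wild types. The wild types enclosed the knockouts, and the log2 difference was -0.17 (SE 0.09; limma adjusted p = 0.976; exact permutation p = 0.4). Egln3 had 18.9, 20.0 and 17.8 RPKM in HC1 knockouts, against 16.9, 14.5 and 14.3 RPKM in HC1 wild types. Here every knockout value lay above every wild-type value, with a log2 difference of 0.30 (limma adjusted p = 0.976; exact permutation p = 0.1). Gapdh had 42.4, 40.2 and 42.2 RPKM in HC1 knockouts, against 52.1, 51.4 and 46.0 RPKM in HC1 wild types. These groups did not overlap either, with a log2 difference of -0.25 (limma adjusted p = 0.976; exact permutation p = 0.1). Donor sex differed with genotype in HC1.

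Since Egln3 stood below the wild types in SVZ and above them in HC1, the difference between these knockout effects was tested after the values were seen. It was 0.85 (SE 0.26) on the log2 scale for HC1 minus SVZ, with an unadjusted limma p of 0.0048 and an adjusted p of 1.0. No member was called in this comparison (0.0122% of all genes called, 1 member at an unadjusted p under 0.05). No member was called for the knockout effect of HC2 minus SVZ (0.0305% of all genes called) or of HC2 minus HC1 (0.0244%), with 1 member each at an unadjusted p under 0.05.

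In HC2, the groups overlapped for all 33 members (0.719% of all genes lay wholly above and 0.408% wholly below). Pgam1 had 100.4, 77.3, 105.0 and 82.8 RPKM in HC2 knockouts, against 96.6, 65.5, 61.0 and 76.6 RPKM in HC2 wild types. The log2 difference was 0.29 (SE 0.14; limma adjusted p = 0.988; exact permutation p = 0.114). Adm had 27.6, 17.4, 53.9 and 35.7 RPKM in HC2 knockouts, against 33.7, 10.1, 6.79 and 30.3 RPKM in HC2 wild types. Its log2 difference of 0.87 had an SE of 0.43 (limma adjusted p = 0.988; exact permutation p = 0.257). Pfkp had 15.7, 6.61, 8.37 and 9.99 RPKM in HC2 knockouts, against 12.6, 3.56, 5.69 and 3.97 RPKM in HC2 wild types, a log2 difference of 0.67 (SE 0.34; limma adjusted p = 0.988; exact permutation p = 0.171). For all 3 genes wild type replicate 2, the wild-type library with the highest cell cycle mean, was the highest wild type. The exact test cannot go below 0.0286 with 4 against 4 libraries.

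**Figure D3:**
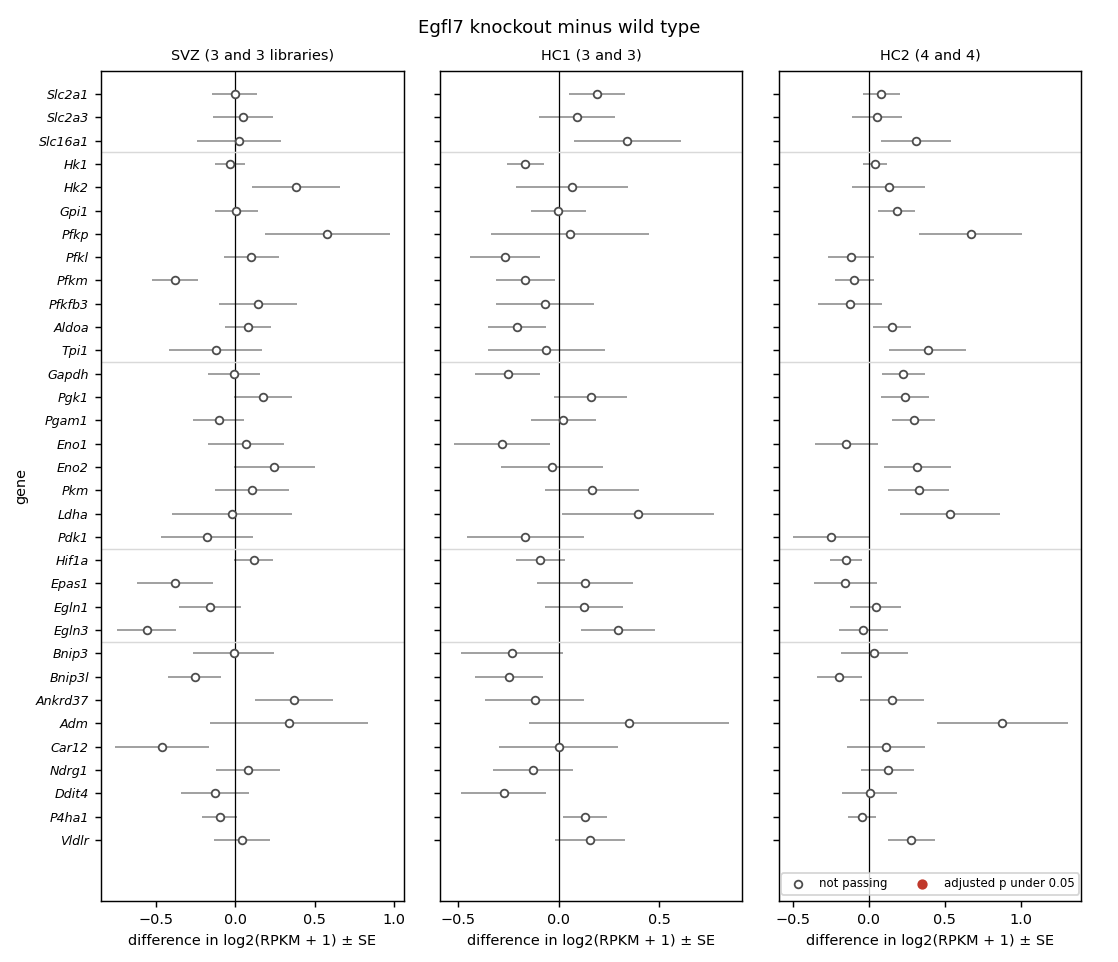
Knockout minus wild-type difference in log2(RPKM + 1) with its standard error from limma (x axis) for the 33 tested genes (y axis, grouped by role) in SVZ, HC1 and HC2. All points are open, since no gene passed the adjusted p of 0.05. Egln3 lies at -0.56 in SVZ and at 0.30 in HC1.

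The second comparison sets SVZ knockouts against HC1 knockouts, male donors of the same sphere round, at culture day 3 and day 5, so that region and culture day cannot be told apart. Hk2, Gapdh and Aldoa rose in SVZ spheres, and Epas1, Pfkm and Egln3 fell. These 3 higher and 3 lower members of 33 stood beside 7.06% of all genes called, 2.63% higher and 4.43% lower. The median over the 33 members was 0.01 on the log2 scale, beside -0.02 over all genes.

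Hk2 is a hexokinase abundant in growing cells. It had 6.32, 7.27 and 4.17 RPKM in SVZ knockouts, against 1.59, 2.27 and 2.17 RPKM in HC1 knockouts. No library overlapped, and the log2 difference was 1.18 (SE 0.28; limma adjusted p = 0.019). Gapdh had 67.4, 60.6 and 63.0 RPKM in SVZ knockouts, against 42.4, 40.2 and 42.2 RPKM in HC1 knockouts. Its log2 difference was 0.60 (SE 0.16; limma adjusted p = 0.0352). Aldoa had 485.8, 528.4 and 465.2 RPKM in SVZ knockouts, against 329.1, 346.8 and 318.5 RPKM in HC1 knockouts, a log2 difference of 0.57 (SE 0.14; limma adjusted p = 0.0257). Both enzymes were higher in all 3 SVZ libraries than in any HC1 knockout library. The call of Gapdh was lost with no filter (limma adjusted p = 0.0589), with a replicate block (0.056) and without any 1 library of the 2 groups (0.0644 to 0.114). The block matched libraries by replicate number, and these 2 groups carry different mouse numbers, so it did not pair mice. Without SVZ knockout replicate 2 and SVZ wild type replicate 3, which went against their labels, Hk2, Aldoa and Gapdh were not called (limma adjusted p = 0.0983, 0.0935 and 0.0751), and Egln3 was not either (0.163).

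Epas1 had 9.38, 5.01 and 9.56 RPKM in SVZ knockouts, against 24.7, 23.7 and 25.6 RPKM in HC1 knockouts. It fell by 1.56 on the log2 scale (SE 0.24; limma adjusted p = 0.00228). Hif1a, its paralog, had 116.1, 118.8 and 135.1 RPKM in SVZ knockouts, against 138.3, 161.0 and 147.9 RPKM in HC1 knockouts, and did not pass the test (limma adjusted p = 0.171). Pfkm had 56.4, 48.2 and 63.3 RPKM in SVZ knockouts, against 103.4, 104.0 and 96.2 RPKM in HC1 knockouts, and fell by 0.85 (SE 0.15; limma adjusted p = 0.00396). Egln3 had 9.30, 10.9 and 15.2 RPKM in SVZ knockouts, against 18.9, 20.0 and 17.8 RPKM in HC1 knockouts, and fell by 0.66 (SE 0.19; limma adjusted p = 0.0405). All 3 genes were free of overlap between the groups. The direction of Egln3 did not hold in wild types, with 17.5 ± 0.55 RPKM in SVZ wild types and 15.2 ± 1.48 RPKM in HC1 wild types (SD, n = 3 each), and with both genotypes the difference was -0.23 (limma adjusted p = 0.176). Its call was also lost with no filter (0.0662), with a replicate block (0.0561), and without any 1 library of the 2 groups other than SVZ knockout replicate 3 (0.0779 to 0.157).

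Of the 33 members, 11 lay entirely above and 13 entirely below the HC1 knockouts (19.4% and 22.4% of all genes did so). Ldha was among those above, with 307.9, 388.5 and 349.4 RPKM in SVZ knockouts, against 206.2, 206.6 and 256.3 RPKM in HC1 knockouts, and did not pass the test with a shared spread (log2 difference 0.64, SE 0.38, limma adjusted p = 0.299). The count of called members depended on the spread used and on the libraries compared. With only these 2 groups fitted, 18 were called (10 higher, 8 lower), beside 1661 higher and 1680 lower of all genes. With both genotypes, at the shared spread and with the female HC1 wild types, 18 were called (9 higher, 9 lower). All genes then had 2372 higher and 3221 lower. The count of members was 2 without the SVZ libraries that went against their labels. It was also 2 without SVZ knockout replicate 1 or 2 or HC1 knockout replicate 1 or 2, and 3 without HC1 knockout replicate 3. Epas1 and Pfkm were called in all of these. The cell cycle list stood 0.87 higher on the log2 scale at its median in SVZ knockouts. With the cell cycle mean as a covariate, 3 members were higher and 4 lower, beside 534 higher and 938 lower of all genes. The 10 endothelial markers, 2 of which passed the filter, summed to 4.27 to 8.23 RPKM in SVZ knockouts, against 2.18 to 2.84 RPKM in HC1 knockouts. The part of endothelial cells in these differences was not tested.

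The third comparison sets second-round against first-round hippocampal spheres, both from male knockout donors at day 5. In HC2 knockouts against HC1 knockouts, the lower-step enzymes Eno1, Pgk1 and Pgam1 fell, as did Gpi1 and Pfkfb3 of the upper steps, Epas1 and Egln3 of oxygen sensing, and Bnip3l. Pdk1, Pfkm, Pfkl, Aldoa, Ddit4 and P4ha1 rose. The count was 6 higher and 8 lower of 33 members, beside 38.3% of all genes called, 16.1% higher and 22.3% lower, so the share of members was close to that of all genes. With each library scaled to the same upper quartile, 6 members were higher and 6 lower, and the split over all genes moved to 3466 higher and 3060 lower, against 2638 higher and 3650 lower unscaled. Sphere round and any difference in sequencing depth cannot be told apart. With both genotypes, which brings in the female HC1 wild types, 5 members were higher and 13 lower, beside 3738 higher and 5166 lower of the 16403 genes.

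Pgk1, which makes the first ATP of glycolysis and whose promoter window held 2 HIF core sites, had 65.7, 59.1, 70.5 and 64.6 RPKM in HC2 knockouts, against 169.3, 187.3 and 175.2 RPKM in HC1 knockouts. It fell by 1.44 on the log2 scale (SE 0.17; limma adjusted p = 4.11e-06), with a wide gap between the groups. Pgk1 is among the genes with processed pseudogenes, and the part of shared reads in this difference was not tested. Eno1, which makes phosphoenolpyruvate, had 58.8, 71.3, 66.2 and 40.1 RPKM in HC2 knockouts, against 184.9, 173.7 and 175.8 RPKM in HC1 knockouts, and fell by 1.61 (SE 0.22; limma adjusted p = 2.27e-05). Eno1b, a near-identical copy of Eno1 with its own entry in the table, can share reads with it, so the value of Eno1 alone is uncertain. Eno1b averaged 312.3 ± 80.1 RPKM in HC2 knockouts (SD, n = 4) and 319.0 ± 25.9 RPKM in HC1 knockouts (SD, n = 3), a log2 difference of -0.06 that did not pass the test (limma adjusted p = 0.872). The sum of both averaged 371.4 ± 84.1 RPKM in HC2 knockouts (SD, n = 4) and 497.1 ± 20.8 RPKM in HC1 knockouts (SD, n = 3), a difference of -0.45 on the log2 scale that was not tested.

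Egln3, itself a HIF target that marks HIF for breakdown, had 8.32, 6.89, 7.66 and 5.33 RPKM in HC2 knockouts, against 18.9, 20.0 and 17.8 RPKM in HC1 knockouts. It fell by 1.32 (SE 0.17; limma adjusted p = 1.28e-05). Epas1 had 8.18, 5.39, 10.6 and 9.95 RPKM in HC2 knockouts, against 24.7, 23.7 and 25.6 RPKM in HC1 knockouts, and fell by 1.47 (SE 0.22; limma adjusted p = 5.68e-05). The values of Epas1 and Egln3 in HC1 knockouts are those that also served for the comparison with the SVZ, so the 2 comparisons share libraries. Hif1a had 131.3, 163.8, 138.0 and 126.7 RPKM in HC2 knockouts, against 138.3, 161.0 and 147.9 RPKM in HC1 knockouts, and these groups overlapped (log2 difference -0.10, SE 0.11, limma adjusted p = 0.538).

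Bnip3l had 16.5, 21.7, 16.5 and 17.2 RPKM in HC2 knockouts, against 37.7, 34.5 and 29.3 RPKM in HC1 knockouts, and fell by 0.88 (SE 0.16; limma adjusted p = 0.000286). Pfkfb3 had 7.50, 5.78, 6.92 and 12.3 RPKM in HC2 knockouts, against 12.7, 13.8 and 13.2 RPKM in HC1 knockouts, and fell by 0.69 (SE 0.23; limma adjusted p = 0.0244). Its highest HC2 value was that of replicate 8, the HC2 knockout with the lowest cell cycle mean, and still lay below the HC1 knockouts. The call of Pfkfb3 was lost with upper quartile scaling (-0.57, limma adjusted p = 0.0756), with only the groups compared (0.0506), and without any 1 of the HC1 knockouts or without HC2 knockout replicate 4 or 7 (0.052 to 0.0771). Pgam1 and Gpi1 fell by 0.49 and 0.42 (limma adjusted p = 0.0151 and 0.0167). Their calls were not followed gene by gene in the alternative runs. The lower members numbered 6 with upper quartile scaling and 6 without HC1 knockout replicate 2, against 8 in the main fit. Of the lower members that were followed, only Pfkfb3 lost its call in those runs, so Pgam1, Gpi1 or both lost theirs.

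Among the genes that rose, Pdk1 had 10.4, 11.2, 11.6 and 22.1 RPKM in HC2 knockouts, against 8.88, 6.63 and 6.52 RPKM in HC1 knockouts (log2 difference 0.78, SE 0.27, limma adjusted p = 0.0312). Ddit4 had 111.1, 127.1, 89.6 and 99.7 RPKM in HC2 knockouts, against 61.7, 75.3 and 69.6 RPKM in HC1 knockouts (0.62, SE 0.20, limma adjusted p = 0.0198). Pfkm had 136.8, 175.0, 147.7 and 152.6 RPKM in HC2 knockouts, against 103.4, 104.0 and 96.2 RPKM in HC1 knockouts (0.59, SE 0.14, limma adjusted p = 0.00243). All 3 were free of overlap between the groups, and Pdk1 was highest in replicate 8. Without that library the log2 difference of Pdk1 was 0.54 (limma adjusted p = 0.104), and it no longer passed with only the groups compared (0.0546) or when HC1 knockout replicate 2 (0.0965) or replicate 3 (0.10) was left out. Ddit4 lost its call without HC1 knockout replicate 1 (limma adjusted p = 0.0815) or HC2 knockout replicate 4 (0.0599). Pfkl and Aldoa rose by 0.58 and 0.38 (limma adjusted p = 0.00931 and 0.0317), and P4ha1 by 0.34 (limma adjusted p = 0.0136). Pfkl had 26.03, 29.1, 25.1 and 34.1 RPKM in HC2 knockouts, against 20.4, 18.6 and 17.1 RPKM in HC1 knockouts. Aldoa had 442.2, 422.0, 487.7 and 383.7 RPKM in HC2 knockouts, against 329.1, 346.8 and 318.5 RPKM in HC1 knockouts, and P4ha1 had 46.2, 41.5, 53.6 and 45.6 RPKM in HC2 knockouts, against 36.6, 39.4 and 33.9 RPKM in HC1 knockouts. Each of these 3 was higher in all 4 HC2 libraries than in any HC1 knockout library. The difference of Aldoa was 0.20 with both genotypes (limma adjusted p = 0.0809), and its call was lost without any 1 of the HC1 knockouts or without HC2 knockout replicate 1 or 7 (limma adjusted p = 0.0535 to 0.0979). P4ha1 lost its call without HC1 knockout replicate 3 (limma adjusted p = 0.0715) and with only the groups compared (0.0612).

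Of the 33 members, 6 lay entirely above and 9 entirely below the HC1 knockouts, as did 17.5% and 24.8% of all genes. Ldha was the member below that did not pass the test, with 156.4, 89.6, 190.9 and 86.4 RPKM in HC2 knockouts, against 206.2, 206.6 and 256.3 RPKM in HC1 knockouts (log2 difference -0.84, SE 0.35, limma adjusted p = 0.0714). The cell cycle list had a median log2 difference of -1.13 in HC2 knockouts. With the cell cycle mean as a covariate, 6 members were higher and 10 lower, and Pdk1 (0.48, limma adjusted p = 0.102) and Ddit4 (0.46, limma adjusted p = 0.0622) were not among them. The 8 astrocyte markers summed to 1423 to 2682 RPKM in HC2 knockouts, against 1275 to 1521 RPKM in HC1 knockouts. The 10 microglia and macrophage markers, 3 of them at 0 in all libraries, summed to 0.127 to 0.577 RPKM in HC2 knockouts, against 1.62 to 2.01 RPKM in HC1 knockouts. The part of these cell types in the differences was not tested.

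**Figure D4:**
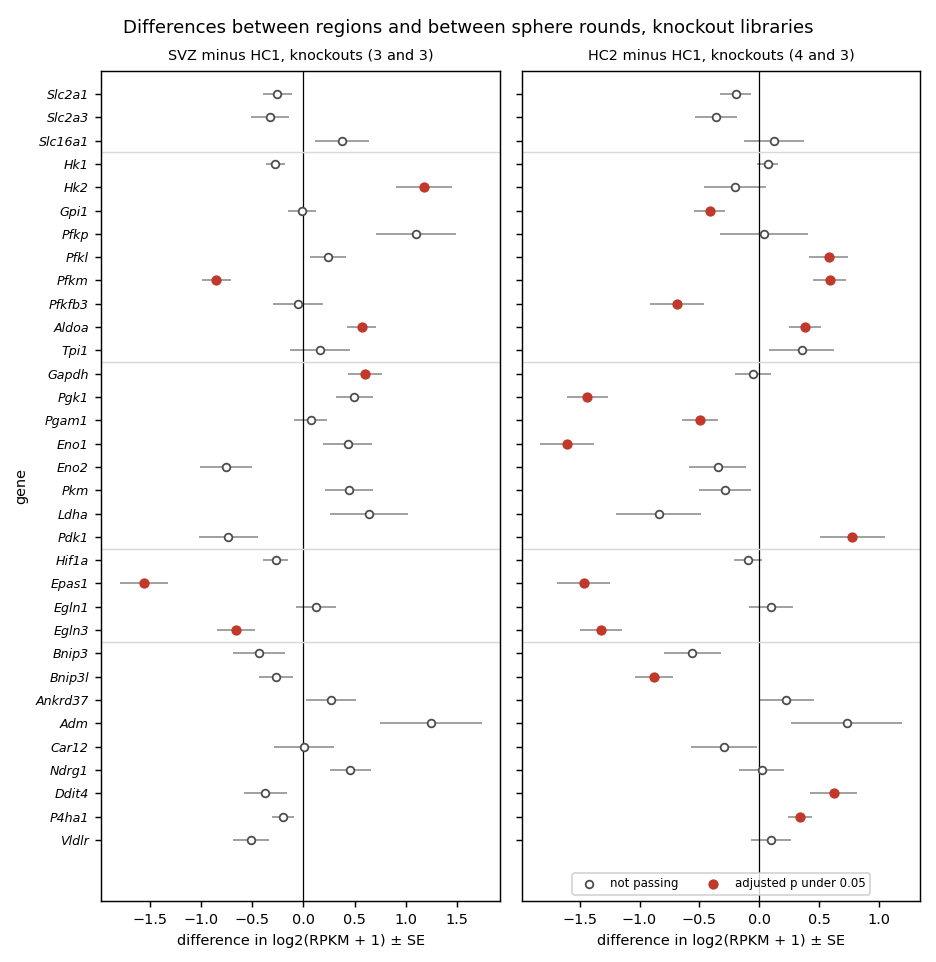
Difference in log2(RPKM + 1) with its standard error from limma (x axis) for the 33 tested genes (y axis) between SVZ and HC1 knockouts (left) and HC2 and HC1 knockouts (right). Filled points passed an adjusted p of 0.05, 6 genes on the left and 14 on the right, with Eno1 at -1.61 and Pgk1 at -1.44 on the right.

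Within the groups, Ldha and Pkm were higher in libraries with higher cell cycle genes. This relation was tested after the data were seen, with limma fitted to 6 group means and the library's cell cycle mean as a term, and each slope is the change in log2(RPKM + 1) per unit of that mean. Of the 33 members, 11 had a called positive slope (19.9% of all genes) and 5 a called negative slope (12.8%). The median slope was 0.09 over the members and 0.01 over all genes. With upper quartile scaling the members split into 8 positive and 9 negative slopes, and all genes into 2544 and 3170 against 3266 and 2107 unscaled, so the balance of directions depended on the scaling.

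Ldha had the smallest p, with a slope of 0.48 (SE 0.04; limma adjusted p = 2.09e-07). Its level was 156.4, 89.6, 190.9 and 86.4 RPKM in HC2 knockouts, against 184.8, 57.2, 48.8 and 100.9 RPKM in HC2 wild types, in each genotype highest in the libraries with a cell cycle mean above 5. Pkm followed with a slope of 0.26 (SE 0.04; limma adjusted p = 0.000194), and its level was 464.8, 402.4, 592.6 and 359.3 RPKM in HC2 knockouts, against 510.7, 293.4, 240.4 and 444.4 RPKM in HC2 wild types. Both genes were lowest in wild type replicate 5, which had the lowest cell cycle mean.

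Slopes of the other lower-step enzymes Gapdh, Pgam1 and Pgk1 were 0.16, 0.15 and 0.16 (limma adjusted p = 0.00321, 0.00649 and 0.0093), and that of Tpi1 was 0.23 (limma adjusted p = 0.0308). The lactate transporter Slc16a1 had 0.21, Adm 0.48, Vldlr 0.16, Egln1 0.17 and Car12 0.22 (limma adjusted p = 0.0295, 0.00462, 0.00548, 0.0164 and 0.0464). Negative slopes were those of Eno2 (-0.25), Pdk1 (-0.25), Bnip3 (-0.23), Pfkfb3 (-0.23) and Pfkl (-0.14), with limma adjusted p of 0.00318, 0.0167, 0.0093, 0.00707 and 0.0349. Pdk1, which diverts pyruvate away from the mitochondria, reached 22.1 RPKM in HC2 knockout replicate 8 and 21.1 and 21.2 RPKM in HC2 wild type replicates 3 and 6, all with a cell cycle mean below 4, and had 8.68 RPKM in wild type replicate 2. Its level was 15.9 RPKM in HC2 wild type replicate 5, at the lowest cell cycle mean, so it was not highest there.

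The number of called slopes depended on the second-round libraries. In the HC2 libraries alone 8 slopes were positive and 3 negative (2552 and 1317 over all genes), and in the first-round libraries alone, whose cell cycle means span a narrower range, 1 was positive and 0 negative (280 and 86 over all genes). That 1 was Slc16a1, with a slope of 0.92 (limma adjusted p = 0.0315). Without the 2 libraries farthest from the median cell cycle mean, HC2 wild type replicates 3 and 5, 6 were positive and 3 negative (2831 and 1817 over all genes), and without HC2 wild type replicate 2 there were 5 and 1 (1751 and 997). Without the 2 farthest libraries the slopes of Pgk1 and Adm were 0.05 and 0.26 (limma adjusted p = 0.441 and 0.229), and without HC2 wild type replicate 5 alone that of Pgk1 was 0.09 (0.118). Without HC2 wild type replicate 2 the slope of Pdk1 was -0.14 (0.411). Car12, a gene of low level, lost its call without any 1 of several libraries (limma adjusted p = 0.0502 to 0.204). Slc16a1 lost its call with upper quartile scaling (0.091) and in the HC2 libraries alone (0.114). Tpi1 lost its call with upper quartile scaling (0.0789) and without HC2 wild type replicate 5 (0.162). Pfkl lost its call without the 2 farthest libraries (0.127) and without HC2 wild type replicate 2 (0.0715). Gapdh (limma adjusted p = 0.0568 and 0.0611), Pgam1 (0.103 and 0.133) and Pfkfb3 (0.156 and 0.0568) lost theirs in the same 2 runs. Eno2 and Vldlr were not called without the 2 farthest libraries (limma adjusted p = 0.071 and 0.0782). Egln1 and Bnip3 were not called without HC2 wild type replicate 2 (limma adjusted p = 0.14 and 0.0823). Astrocyte markers also varied among the HC2 libraries. Their sum ranged from 1423 to 2682 RPKM in HC2 knockouts, against 1365 to 3283 RPKM in HC2 wild types, all 8 markers passed the filter, and Gfap, the astrocyte filament gene, had 9.96, 84.9, 2.47 and 328.5 RPKM in HC2 knockouts, against 1.33, 113.8, 535.5 and 20.8 RPKM in HC2 wild types. Gfap is 1 of the 8 markers, and the others were not set against the cell cycle mean by library. The part of astrocyte markers in the slopes was not tested.

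**Figure D5:**
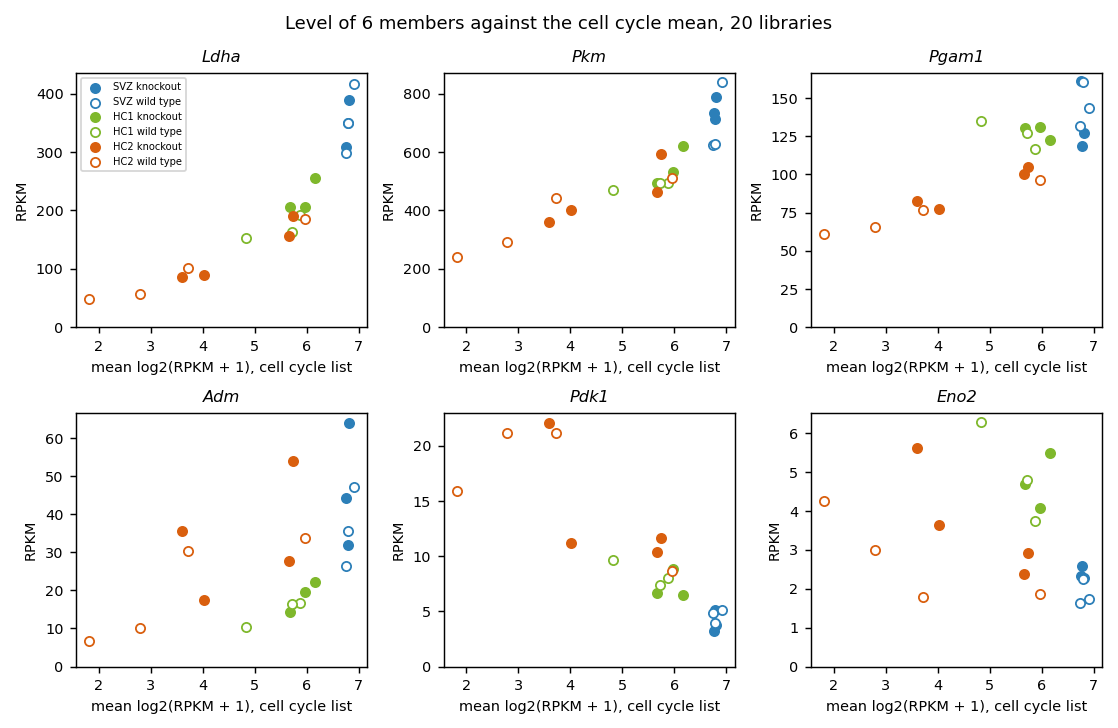
Level in RPKM (y axis) of 6 members against the mean log2(RPKM + 1) of 32 cell cycle genes (x axis) in the 20 libraries, with filled points for knockout and open points for wild type. Ldha reaches 416.7 RPKM at the highest cell cycle mean, 6.91, and 48.8 RPKM at the lowest, 1.82, and Pdk1 has 15.9 RPKM at that lowest mean.

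Other genes of the same pathways were read from 2 further lists. Of 30 other glycolysis genes 29 were in the table and 24 tested, and of 36 other hypoxia response genes 31 were tested. None of either list passed the test in a knockout comparison, with median log2 differences of 0.02 and -0.11 in SVZ, -0.12 and -0.01 in HC1, and 0.00 and 0.08 in HC2. Between SVZ and HC1 knockouts, 1 glycolysis list gene rose and 2 fell, and 0 and 4 of the hypoxia list, beside 2.63% of all genes higher and 4.43% lower. Tkt, transketolase of the pentose phosphate pathway, rose with 430.9 ± 9.94 RPKM in SVZ knockouts and 257.1 ± 18.8 RPKM in HC1 knockouts (SD, n = 3 each; limma adjusted p = 0.0449). Pfkfb2, a relative of Pfkfb3, fell with 7.37 ± 0.13 RPKM in SVZ knockouts and 14.1 ± 0.92 RPKM in HC1 knockouts (SD, n = 3 each; limma adjusted p = 0.00519). The transcriptional repressor Bhlhe41, the nuclear receptor Rora and the heme oxygenase Hmox1 fell by 1.88, 1.29 and 0.79 on the log2 scale (limma adjusted p = 0.00114, 0.000501 and 0.0207).

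In HC2 against HC1 knockouts, 3 genes of the glycolysis list rose and 8 fell, and 5 genes of the hypoxia list rose and 5 fell, beside 16.1% of all genes higher and 22.3% lower. The mitochondrial pyruvate carrier subunit Mpc2 had 94.0 ± 4.95 RPKM in HC2 knockouts (SD, n = 4) and 47.5 ± 5.70 RPKM in HC1 knockouts (SD, n = 3; limma adjusted p = 8.66e-05). Its partner subunit Mpc1 went the other way, with 35.4 ± 5.01 RPKM in HC2 knockouts (SD, n = 4) and 69.6 ± 9.32 RPKM in HC1 knockouts (SD, n = 3; limma adjusted p = 0.00254). Pgm2 (a phosphoglucomutase) and Pdha1 (a pyruvate dehydrogenase subunit) rose by 0.59 and 0.44 (limma adjusted p = 0.00922 and 0.0105). Pgd (phosphogluconate dehydrogenase) and Bpgm (bisphosphoglycerate mutase) fell by 1.51 and 1.26 (limma adjusted p = 1.43e-09 and 0.000152). Of the hypoxia list, the metallothionein Mt1, Rora and the collagen lysyl hydroxylase Plod1 rose by 2.62, 1.01 and 0.80 (limma adjusted p = 0.000144, 5.00e-05 and 0.00105). Higd1a (a mitochondrial protein), Ak4 (an adenylate kinase) and Hif1an (the asparaginyl hydroxylase that inhibits HIF) fell by 1.79, 0.72 and 0.56 (limma adjusted p = 1.32e-05, 0.0163 and 8.41e-05). Rora thus stood lowest in SVZ knockouts and highest in HC2 knockouts, at 2.18 ± 0.36 (SD, n = 3), 6.79 ± 0.94 (SD, n = 3) and 14.7 ± 1.05 RPKM (SD, n = 4) in SVZ, HC1 and HC2 knockouts.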

How the data were processed

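The members and gene lists were chosen with earlier results of these data known. Per the labels' protocols, total RNA was ribosome-depleted, made into stranded libraries, enriched for exons by hybrid capture and sequenced in pairs. FastQC 0.11.5, DESeq2 and the build mm10 (GRCm38) are named in the submitters' processing notes. Alignment, counting, strand use and gene lengths are steps not given in the sources used here. Per the file headers, the deposited values are RPKM on a linear scale. Count models need counts and were not used; blank cells were read as 0. Each library of a group carries its own mouse number; whether numbers that recur between groups mark the same animals is not stated.

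The filter of 0.5 RPKM in 3 or more of 20 libraries kept 16403 genes (44.7%). Values as log2(RPKM + 1), a scale that understates the change of low genes, were fitted with limma 3.58.1 (R 4.3.3), 6 group means and 14 residual degrees of freedom (eBayes with trend and robust). P-values were two-sided and adjusted by Benjamini-Hochberg over the kept genes. Exact permutation tests used SciPy 1.17.1. On simulated data the fit recovered 67% to 78% of changed genes at a log2 change of 1 and 92% to 97% at 2 over the 5 group comparisons, with 200 of 16403 genes changed in each. The changed genes were drawn from those with a mean log2(RPKM + 1) above that of 5 RPKM. The noise was normal, with 1 SD per gene in all groups. Recovery of lower genes, or in groups of wider spread, was not simulated.

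Values per library are given for the 3 members of smallest p where none was called, and for up to 6 called members per direction whose mean reached 5 RPKM in a group; other values were chosen after they were seen. Of the 2 further lists, up to 3 called genes per direction are named. Relative depth came from the ratios between libraries of the lowest values of shared genes. For HC2 libraries the choice was restricted to higher ratios. Absolute depth is unknown. Alternatives were a pseudocount of 0.1, no filter, upper quartile scaling, only the groups compared, a cell cycle covariate, a replicate block, both genotypes, and libraries left out. The knockout effect of HC1 minus SVZ and the slopes were added after the data were seen.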

Additional observations from a re-analysis of the deposited data

Results flagged for a closer look

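Egln3 was lower in all 3 SVZ knockouts than in any SVZ wild type (log2 difference -0.56) and higher in all 3 HC1 knockouts than in any HC1 wild type (0.30). The difference between both effects, 0.85 (SE 0.26), had an unadjusted limma p of 0.0048 and an adjusted p of 1.0, and stayed between 0.71 and 1.04 when each library was left out in turn. SVZ knockout replicate 2 and SVZ wild type replicate 3 went against their labels, and without both the SVZ difference was -0.50 and the difference between the effects 0.80, neither past the test. In 4 of 72 groups of 4 libraries, 1 library stood far from the others, where chance gives about 1 in 20. For Slc16a1 in HC2 wild types it was replicate 2, at 42.2 RPKM, with a gap of 0.838 of the range of the group, and for Car12 the same library, at 0.663 RPKM (0.847). For Pdk1 in HC2 knockouts it was replicate 8, at 22.1 RPKM (0.857), and for Bnip3l in HC2 knockouts replicate 4, at 21.7 RPKM (0.837).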

How the results depend on the processing

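No member was called in any comparison of knockout with wild type, or between knockout effects, under any alternative run. For SVZ against HC1 knockouts, 18 members were called with only the groups compared, 18 with both genotypes and 2 without the libraries against their labels, and between 2 and 6 when each library was left out. The count over all genes there was 3341, 5593 and 281 under those 3 settings, and 197 to 1013 over the left-out libraries, against 1158. For HC2 against HC1 knockouts the members called numbered 10 to 14 over the left-out libraries. On the cell cycle mean, 1 slope was called in the first round only, 9 without the 2 farthest libraries, and 6 to 17 when each library was left out. In the first-round libraries the slopes of Tpi1, Pgam1 and Egln1 turned to -0.0443, -0.164 and -0.0498, none past the test, and the cause was not tested. Counts over all genes in the knockout comparisons, against 2, 2 and 4, moved by over 1.5 times to 1 (pseudocount 0.1) and 0 (only the groups compared) in SVZ, to 7 (no filter), 5 (upper quartile scaling), 4 (cell cycle covariate) and 1 (replicate block) in HC1, and to 7 (no filter, and cell cycle covariate) in HC2. They ran from 2 to 5, 1 to 2 and 4 to 26 over the left-out libraries, with 26 without HC2 wild type replicate 2. With blank cells left out, Car9 averaged 0.066 RPKM in SVZ knockouts and 0.07 in SVZ wild types, each from 1 library. Between SVZ genotypes, HC1 genotypes, and SVZ and HC1 knockouts, libraries with the same replicate number did not deviate together (highest correlation 0.0073), so the numbers were not taken as pairs. The SVZ and HC1 knockouts carry mouse numbers 4 to 6 and 1 to 3, so equal replicate numbers there are not equal mouse numbers. HC1 and HC2 knockouts share only number 1 and were not checked. The replicate block left 0 members called for knockout against wild type in SVZ and HC1 and 4 for SVZ against HC1 knockouts, and HC2 shares no numbers between genotypes.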
